A study of Ciona robusta with 9 samples.

Results

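Plasmids that express the same transcription factor under different regulatory DNA were compared in embryos of the sea squirt Ciona robusta, sequenced whole. The plasmid Tbx6-r.b>Bra (3 libraries, here called muscle-driven Bra) was set against Etr1>Bra (3 libraries, here called neural-driven Bra), which makes 6 of the 9 libraries of the series, chosen by these labels and compared in pairs of the same replicate number. The remaining 3 libraries carried the control plasmid Bra>GFP. Fertilized eggs of every group were electroporated, embryos grew in artificial seawater at 21 °C, and 400 embryos per sample were taken at Hotta stage 19.5. Both Bra plasmids encode a Venus-Bra fusion and differ in their regulatory DNA, from Tbx6-r.b or from Etr1. The control plasmid places GFP under regulatory DNA of Bra. No group is labelled with a mutation, and no group carried Tbx6-r.b or Etr1 regulatory DNA without Bra, so effects of the driver DNA itself and of Bra cannot be told apart.

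Brachyury (Bra) is the T-box transcription factor that switches on the notochord programme, and in ascidian embryos it is normally confined to the notochord, the stiff rod along which the larval tail elongates. Tbx6-r.b is a T-box gene of the tail muscle lineage and Etr1 encodes an RNA-binding protein of the nervous system, so their regulatory DNA is used to reach muscle and neural cells, which is what the names muscle-driven and neural-driven stand for here. Ascidian muscle, notochord and nerve cord arise from neighbouring blastomeres with different inherited regulators, and the comparison asks which transcripts depend on the tissue in which Bra is driven. The amount and timing of Bra under each driver were not analysed, so they cannot be told apart from the tissue. The tables name genes by KH identifiers alone. Of 15284 gene models, 0 matched the gene table supplied for the species, so no identifier is given a gene name, a role or a sequence here, and levels of Bra, Etr1 and Tbx6-r.b and of tissue markers were not analysed.

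Libraries held 9043181 to 10399304 gene-assigned reads, and 10.6% to 13.3% of them fell on the 10 most abundant genes. Values are normalized read counts, that is whole reads recovered from the deposited values and scaled over the libraries compared. A mean of at least 10 over the 6 Bra libraries was required, which left 11514 genes to test. Of the 3770 genes under it, 697 had no read in any of the 6. The lowest mean inside this limit was 10.001 and the highest outside it was 9.99. Differences are given as muscle-driven minus neural-driven on the log2(value + 1) scale, which understates the change of low genes. Adjusted p-values are two-sided, from limma with Benjamini-Hochberg adjustment over the 11514 genes (11494 for control comparisons), and a gene is called under 0.05. Separate fertilizations are not named in the labels, and the p-values therefore measure only the spread between these samples, which may be technical.

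The 6 libraries grouped by replicate number before they grouped by construct. The first principal component held 41.3% of the variance and the second 27.3%, and on both of them the 2 libraries of each number lay on the same side of 0. The third component, with 16.5%, separated the constructs: neural-driven libraries 1, 2 and 3 lay at 14.1, 6.08 and 21.6, and the muscle-driven libraries at −7.23, −2.90 and −31.6. The constructs thus do not overlap on this component, and the libraries of number 3 are farthest apart on it. The libraries were compared as pairs of the same number, with the number as a block in the model.

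**Figure D1:**
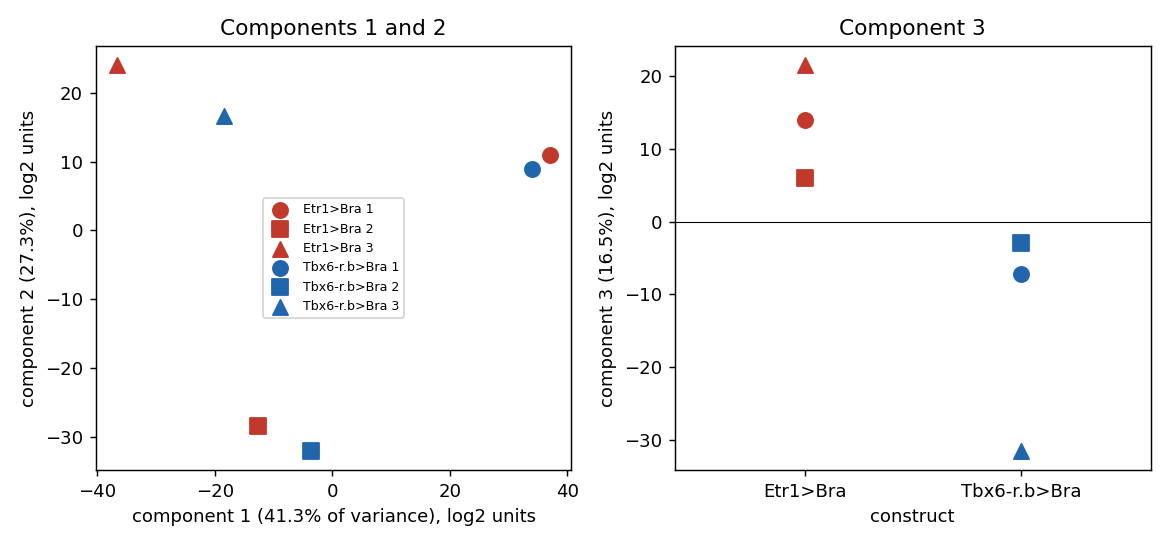
Principal components of log2(normalized read count + 1) over 11514 genes in the 6 Bra libraries, in log2 units. Colour marks the construct and the symbol (circle, square, triangle) the replicate number 1, 2 or 3. Components 1 and 2 (41.3% and 27.3% of variance) place libraries of the same number near each other, and component 3 (16.5%) places the Etr1>Bra libraries above 0 and the Tbx6-r.b>Bra libraries below 0.

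The pairs differed in how far the constructs lay apart. The median difference over all genes was −0.01, 0.00 and −0.01 in pairs 1, 2 and 3, and its SD over genes was 0.36, 0.42 and 0.54. In pair 1, 114 genes (0.99%) were at least 2-fold higher with neural-driven Bra and 151 (1.31%) with muscle-driven Bra. In pair 2 these numbers were 174 (1.51%) and 162 (1.41%). In pair 3 they were 479 (4.16%) and 212 (1.84%), so the lean towards neural-driven Bra at this fold was large in pair 3 and small or opposite in pairs 2 and 1. These counts set 1 library against 1 and include low genes. Among the 7530 genes with a mean of at least 100, 16, 38 and 174 were at least 2-fold higher with neural-driven Bra in pairs 1, 2 and 3, against 13, 23 and 51 with muscle-driven Bra. Over these genes the differences of pairs 1 and 3 correlated at 0.50 (Pearson) and 0.51 (Spearman). Those of pairs 1 and 2 correlated at −0.05 and −0.32, and those of pairs 2 and 3 at 0.03 and −0.31. The pairs share no library, but genes are not independent replicates, so these values only describe the pairs. Pair 2 ranked the moderate differences in another order than pairs 1 and 3.

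**Figure D2:**
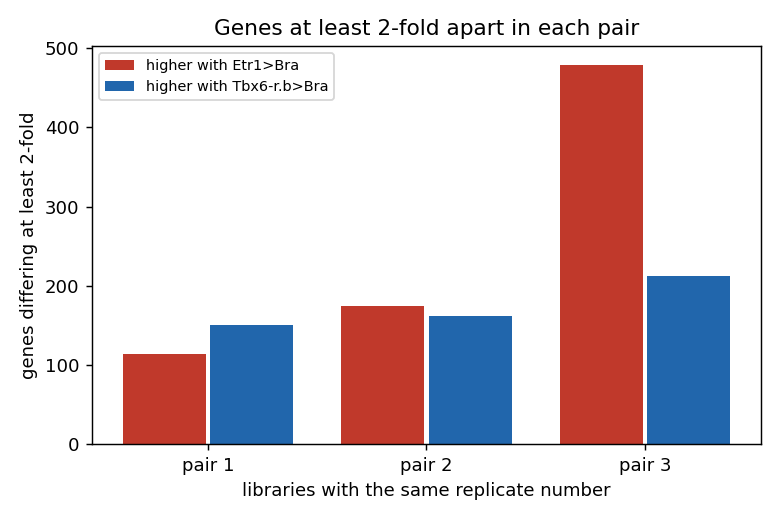
Number of genes at least 2-fold higher with Etr1>Bra (red) or with Tbx6-r.b>Bra (blue), of 11514 tested, in each pair of libraries that share a replicate number. Pair 3 has 479 genes higher with Etr1>Bra, against 114 in pair 1 and 174 in pair 2.

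In the paired fit, 312 genes (2.71%) were called between the constructs: 211 (1.83%) were higher with neural-driven Bra and 101 (0.877%) higher with muscle-driven Bra. In whole embryos, fewer cells of a type and less RNA per cell cannot be told apart. The 211 genes had a median log2 difference of −1.04, and 116 of them were at least 2-fold and 18 at least 4-fold apart. The 101 genes had a median of 0.88, with 36 at least 2-fold and 2 at least 4-fold apart. The largest difference was thus on the neural-driven Bra side, at −4.48, against 2.58 on the other. Of the 211, 196 lay in the same direction in all 3 pairs, and in 117 the libraries of the constructs did not overlap. Of the 101, 82 lay in the same direction in all pairs and 44 did not overlap. The calls used these same values, so the counts describe the called genes and support nothing. Over all 11514 genes, 10.5% were higher with neural-driven Bra in all 3 pairs and 9.52% higher with muscle-driven Bra, and 2.82% and 2.19% did not overlap.

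With 2 residual degrees of freedom, limma estimated infinite prior degrees of freedom, so these p-values rest on a spread shared by genes of the same level and not on each gene's own spread over the pairs. When all 9 libraries were fitted with the block, so that genes kept part of their own spread, 133 genes were called, all among the 312, with 93 higher for neural-driven Bra and 40 for muscle-driven Bra. Without the block limma called 0 genes (350 had an unadjusted p under 0.05, of which 249 were higher with neural-driven Bra), and without pair 2 the blocked fit also called 0 (1891 at an unadjusted p under 0.05).

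Called genes were found at all levels. Of 3984 genes with a mean from 10 to 100, 85 (2.13%) were higher with neural-driven Bra and 40 (1%) higher with muscle-driven Bra, with median log2 differences of −1.31 and 1.08. Of 5738 genes from 100 to 1000, 96 (1.67%) and 54 (0.941%) were called, with medians of −0.95 and 0.72. Of 1792 genes above 1000, 30 (1.67%) and 7 (0.391%) were called, with medians of −0.62 and 0.72. The median over all genes of these levels was 0.02, 0.01 and −0.06, so the abundant genes as a whole lay slightly towards neural-driven Bra. The highest mean of a called gene was 14155 among those higher with neural-driven Bra and 12917 among those higher with muscle-driven Bra. In 18 of the 211 genes the muscle-driven mean was under 10, and in 2 of the 101 the neural-driven mean was.

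**Figure D3:**
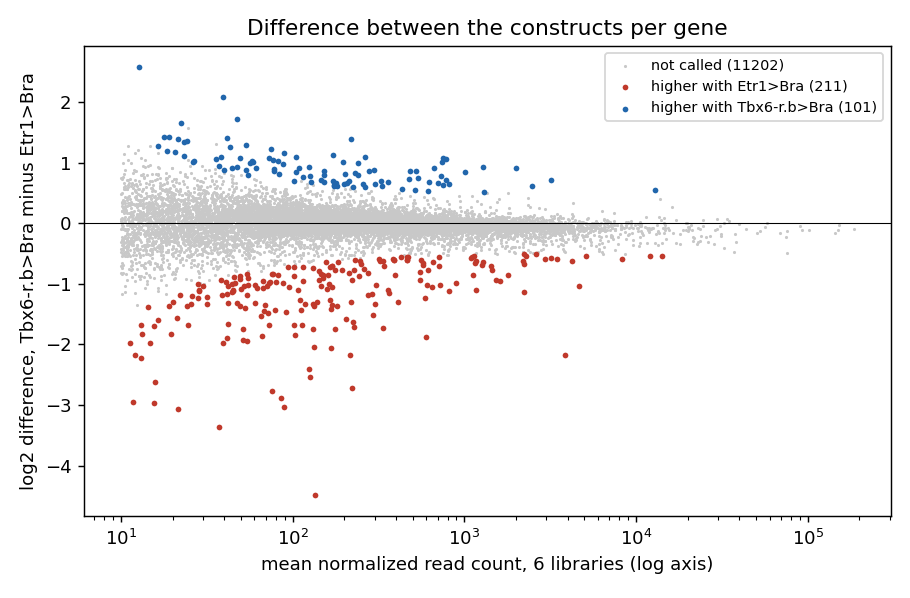
Log2 difference, muscle-driven (Tbx6-r.b>Bra) minus neural-driven (Etr1>Bra), of each of 11514 genes against its mean normalized read count over the 6 libraries, on a log axis. The 211 genes called higher with Etr1>Bra (red) reach −4.48, while the 101 called higher with Tbx6-r.b>Bra (blue) reach 2.58, and called genes lie at all levels.

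Whether the ranking of genes carries over to libraries not used for it was examined by leaving out each pair. Genes were ranked by moderated t in 2 pairs, and the 100 at either end were read in the third, with no test. The genes ranked highest with neural-driven Bra were higher with neural-driven Bra in the pair left out in 90 of 100 cases for pair 1, 87 for pair 2 and 91 for pair 3. All genes gave 50.6%, 49.5% and 50.3%. Their median log2 difference there was −0.69, −0.27 and −2.06. The genes ranked highest with muscle-driven Bra were higher with muscle-driven Bra in 80 of 100 cases in pair 1, 34 in pair 2 and 55 in pair 3, where all genes gave 49.3%, 50.5% and 49.7%. Their medians were 0.22, −0.17 and 0.16. Most genes ranked highest with neural-driven Bra thus lay on that side in each pair left out, with the smallest median in pair 2. Those ranked highest with muscle-driven Bra mostly did so in pair 1, mostly went the other way in pair 2 and were near the share of all genes in pair 3. Each reading sets 1 library against 1, and genes are not independent replicates, so these shares only describe the pairs. The 3 lists overlap, with 21 genes in all 3 of the neural-driven lists and 7 in all 3 of the muscle-driven lists.

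The same lists were set against the control library of the pair left out, which entered neither the ranking nor the direct comparison. Both changes in a pair share that control library. The genes ranked highest with neural-driven Bra lay above control with neural-driven Bra, by a median log2 change of 1.07, 0.17 and 2.40 in pairs 1, 2 and 3, in 95, 68 and 77 of 100 genes. With muscle-driven Bra the same lists had medians of 0.42, 0.13 and 0.21 and were above control in 79, 60 and 62 genes. Over all genes, 49.3%, 47.9% and 47.2% lay above control with neural-driven Bra in these pairs, and 50.6%, 49.9% and 50.8% with muscle-driven Bra. The genes ranked highest with muscle-driven Bra had medians of −0.21, −0.09 and 0.71 with neural-driven Bra, and −0.05, −0.25 and 0.72 with muscle-driven Bra. Only in pair 3 did these genes lie above control with muscle-driven Bra in the median, and there they did so with neural-driven Bra by a like amount. Quartiles in pair 3 ran from −1.13 to 2.25 with neural-driven Bra, so this list held genes on both sides of control.

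**Figure D4:**
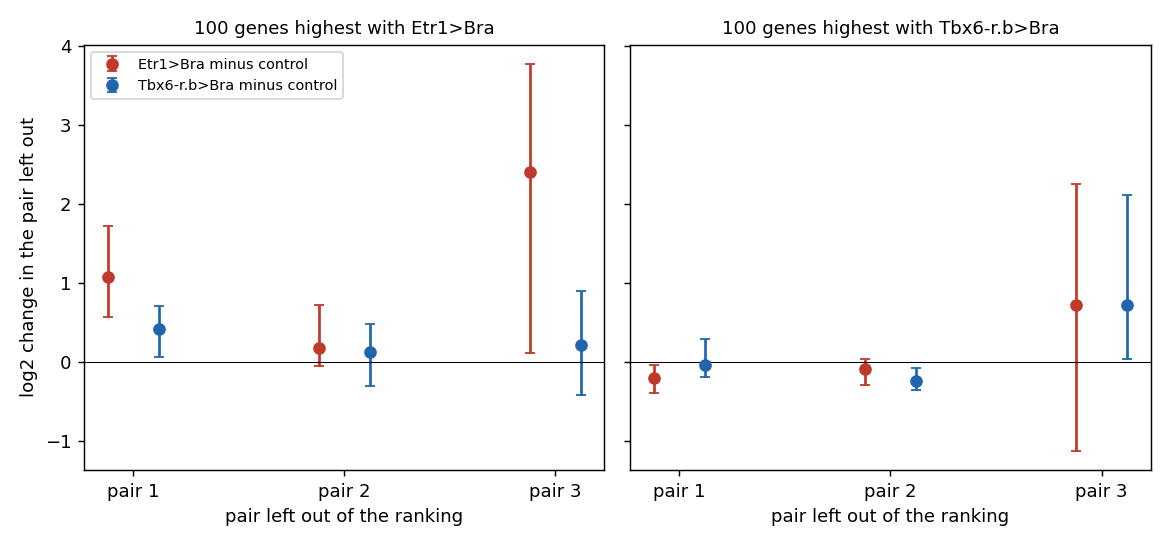
Median log2 change against control (points) with the lower and upper quartile (bars) in the pair left out, for the 100 genes ranked highest with Etr1>Bra (left panel) or with Tbx6-r.b>Bra (right panel) in the other pairs. In the left panel the Etr1>Bra medians (1.07, 0.17 and 2.40) are above those of Tbx6-r.b>Bra (0.42, 0.13 and 0.21), while the right panel shows no such order across pairs.

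The called genes were then placed against control in a fit of all 9 libraries with the block. Over all 11494 genes of that fit, 4.28% rose and 0.731% fell with neural-driven Bra, and 1.63% rose and 0.435% fell with muscle-driven Bra. Of the 211 genes higher with neural-driven Bra, 178 rose with neural-driven Bra, 32 rose with muscle-driven Bra as well and 11 fell with muscle-driven Bra. Their median log2 change was 1.53 with neural-driven Bra and 0.36 with muscle-driven Bra. Of the 101 genes higher with muscle-driven Bra, 54 fell with neural-driven Bra and 18 rose with muscle-driven Bra, 13 of which rose with neural-driven Bra too. Their median was −0.71 with neural-driven Bra and 0.08 with muscle-driven Bra. In both sets the larger departure from control was thus on the side of neural-driven Bra. No gene of either set rose with one construct and fell with the other (0 in each). Over all 11514 genes tested between the constructs the count was 0 too, so this is no trait of the sets. The called genes were chosen on the Bra libraries that these changes also use, and the comparisons with control share the controls, so the counts describe the sets and are no test. Without pair 2 or without pair 3, genes both called between the constructs and risen with neural-driven Bra numbered 0 and 29 in place of 178, and those called higher with muscle-driven Bra and fallen with neural-driven Bra 0 and 2 in place of 54. Those called higher with neural-driven Bra and fallen with muscle-driven Bra numbered 0, 0 and 3 without pairs 1, 2 and 3, in place of 11. Those called higher with muscle-driven Bra and risen with it numbered 4, 0 and 21, in place of 18.

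The control mean lay below both constructs in 171 of the 211 genes (81.0%), between them in 31 (14.7%) and above both in 9 (4.27%). For the 101 genes it lay between the constructs in 50 (49.5%), above both in 31 (30.7%) and below both in 20 (19.8%). Over all genes tested the shares were 33.9% below, 26.8% between and 39.3% above. The 133 genes also called in the 9-library fit all belong to these sets. They were called by the fit that also places genes against control, so their counts are no further support. Of the 93 higher with neural-driven Bra, 83 rose with it, while 15 rose and 6 fell with muscle-driven Bra. Of the 40 higher with muscle-driven Bra, 30 fell and 3 rose with neural-driven Bra, and 3 rose with muscle-driven Bra.

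Pair by pair, the distance of the 211 genes from control with neural-driven Bra was 0.74, 1.44 and 2.30 (median log2 change in pairs 1, 2 and 3), and with muscle-driven Bra it was 0.22, 0.57 and 0.36. For the 101 genes it was −0.20, −0.59 and −1.29 with neural-driven Bra, and 0.09, 0.25 and 0.00 with muscle-driven Bra. With neural-driven Bra these medians were farthest from 0 in pair 3, but the genes were called on the same libraries. Over all genes tested with a pair left out, the quartiles of the change with neural-driven Bra were −0.22 and 0.22 in pair 1. They were −0.14 and 0.14 in pair 2 and −0.21 and 0.20 in pair 3. Quartiles over all genes cannot show a change confined to a small share of them, so they do not tell whether pair 3 stood apart. In 187 of the 211 genes and in 70 of the 101 the difference between the constructs was largest in pair 3. These counts use the values that made the calls, and the share over all genes was not counted. Over all genes the SD of the difference was also largest in pair 3 (0.54, against 0.36 in pair 1 and 0.42 in pair 2). Without pair 3, 35 genes were called higher with neural-driven Bra and 25 with muscle-driven Bra.

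The genes whose smallest difference over the pairs was largest are given next, out of those called that averaged at least 100 and showed no overlap between the constructs (75 higher with neural-driven Bra, 23 higher with muscle-driven Bra). Levels are normalized read counts over all 9 libraries, in the order of replicates 1, 2 and 3. KH.C8.898 stood at 92.8, 297 and 403 with neural-driven Bra, at 12.7, 11.9 and 4.66 with muscle-driven Bra and at 12.2, 4.67 and 9.34 in control. It was high in the neural-driven libraries and at the control level in those of muscle-driven Bra. Its log2 difference was −4.48 ± 0.26 (SE, adjusted p = 4.43e-63, range over all settings, those without a pair included, 4.43e-63 to 0.266), and in pairs 1, 2 and 3 it was −2.78, −4.53 and −6.14. Against control it rose with neural-driven Bra by a log2 change of 4.61 ± 0.45 (adjusted p = 1.11e-06). KH.C8.811 stood at 59.4, 214 and 385 with neural-driven Bra, at 14.8, 40.1 and 51.2 with muscle-driven Bra and at 2.03, 14.0 and 6.54 in control. Here all libraries of both constructs were above all controls, with those of neural-driven Bra highest. Its log2 difference was −2.40 ± 0.23 (adjusted p = 7.92e-23, range 5.45e-23 to 0.96), and against control it rose with both, by 4.61 ± 0.30 and 2.21 ± 0.30 (adjusted p = 3.28e-09 with neural-driven and 0.000104 with muscle-driven Bra).

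On the other side, KH.L57.28 stood at 1359, 1025 and 468 with neural-driven Bra, at 1937, 1668 and 1391 with muscle-driven Bra and at 1928, 1674 and 1185 in control. The muscle-driven libraries were within or close to the control range and the neural-driven library of number 3 was lowest. Its log2 difference was 0.93 ± 0.16 (adjusted p = 1.19e-06, range 1.04e-06 to 1), and it was 0.51, 0.70 and 1.58 in pairs 1, 2 and 3. Against control it fell with neural-driven Bra (log2 change −0.85 ± 0.15, adjusted p = 0.00123). KH.C14.516 stood at 270.0, 257 and 185 with neural-driven Bra, at 436, 395 and 292 with muscle-driven Bra and at 295, 379.5 and 501 in control. All neural-driven libraries were below all others, and the controls and muscle-driven Bra overlapped. Its log2 difference was 0.66 ± 0.18, and at 0.69, 0.62 and 0.67 it was nearly the same in the 3 pairs. Its call (adjusted p = 0.0120, range 0.00984 to 1) was lost in the fit of 9 libraries (adjusted p = 0.102). Against control KH.C14.516 fell with neural-driven Bra (log2 change −0.71 ± 0.19, adjusted p = 0.0294), by unequal amounts of −0.13, −0.56 and −1.44 in the 3 pairs. With muscle-driven Bra its changes against control were 0.56, 0.06 and −0.78.

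Both constructs raised some genes by unequal amounts. KH.C4.361 was at 0, 0.935 and 0 in control, from 1 read over the 3 libraries. It stood at 58.4, 224 and 578 with neural-driven Bra and at 23.2, 66.0 and 65.2 with muscle-driven Bra. Per library size, it had 913 times the control's reads with neural-driven Bra (exact 95% interval for counting error 163 to 36095.5) and 162 times with muscle-driven Bra (28.7 to 6458). The libraries of the constructs overlapped, but neural-driven Bra was higher in each pair, by a log2 difference of −1.30, −1.75 and −3.12. The fitted difference was −2.05 ± 0.21 (adjusted p = 8.19e-19, range 5.48e-19 to 1).

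KH.C11.709 stood at 18.3, 10.3 and 10.3 in control, at 369, 796 and 1832 with neural-driven Bra and at 167, 248 and 257 with muscle-driven Bra. All neural-driven libraries were above all muscle-driven libraries, and the controls were far below both. Its log2 difference was −1.88 ± 0.17 (adjusted p = 1.65e-24, range 8.22e-25 to 0.949), with log2 changes against control of 5.92 and 4.03. In the opposite order, KH.C10.588 stood at 2.03, 4.67 and 0.934 in control, at 107, 91.2 and 160.1 with neural-driven Bra and at 416, 351 and 198 with muscle-driven Bra. It was higher with muscle-driven Bra by 1.39 ± 0.19 (adjusted p = 8.08e-11, range 1.88e-11 to 0.788), by 1.94 and 1.93 in pairs 1 and 2 and by 0.31 in pair 3. KH.C5.653 had 3 control reads in all, and it had 31.0 times the control's reads with neural-driven Bra (10.3 to 153) and 50.3 times with muscle-driven Bra (16.9 to 247). It was at 8.34, 16.9 and 62.5 with neural-driven Bra and at 28.5, 66.0 and 50.3 with muscle-driven Bra. The difference was 1.66, 1.91 and −0.30 in the 3 pairs. Its call between the constructs (1.09 ± 0.29, adjusted p = 0.0107, range 0.000555 to 1) therefore rests on pairs 1 and 2: without pair 3 the difference was 1.78 (adjusted p = 0.000555), and the call was lost in the fit of 9 libraries (adjusted p = 0.623).

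Other genes were called below control with one construct and not with the other. KH.C12.611 stood at 13.6, 12.9 and 6.83 with neural-driven Bra, at 37.0, 20.6 and 22.4 with muscle-driven Bra and at 45.7, 31.8 and 20.6 in control. It fell with neural-driven Bra (log2 change −1.46 ± 0.30, adjusted p = 0.00378) and was near control with muscle-driven Bra (−0.26, adjusted p = 0.999). Its difference between the constructs was 1.20 ± 0.36 (adjusted p = 0.0376, range 0.0305 to 1), a call that was lost in the fit of 9 libraries (adjusted p = 0.0561) and with TMM scaling (adjusted p = 0.0522). KH.C5.502 stood at 46.9, 31.7 and 20.5 with neural-driven Bra, at 60.2, 75.8 and 66.1 with muscle-driven Bra and at 73.1, 63.6 and 69.1 in control. The neural-driven libraries were below all others, and its log2 change against control was −1.11 ± 0.24 (adjusted p = 0.0055). Between the constructs the difference was 1.08 ± 0.26 (adjusted p = 0.00237, range 0.00218 to 1).

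KH.C3.406 stood at 843, 442 and 441 with neural-driven Bra, at 426, 324 and 341 with muscle-driven Bra and at 738, 601 and 612 in control. It fell with muscle-driven Bra (log2 change −0.84 ± 0.14, adjusted p = 0.00115), and the neural-driven libraries lay on both sides of the control range. Its difference was −0.60 ± 0.17 (adjusted p = 0.0213, range 0.0161 to 1), with −0.99, −0.45 and −0.36 in the 3 pairs. KH.C9.785 stood at 5843, 3625 and 2403 with neural-driven Bra, at 3437, 2151 and 2052 with muscle-driven Bra and at 5712.5, 4057 and 4328 in control. It fell with muscle-driven Bra (log2 change −0.91 ± 0.14, adjusted p = 0.000529), and the libraries of the constructs overlapped. Neural-driven libraries 2 and 3 were below all controls too, though the change with neural-driven Bra was not called (−0.33 ± 0.14, adjusted p = 0.278). Its difference of −0.58 ± 0.16 (adjusted p = 0.0124, range 0.0122 to 1) was smallest in pair 3, at −0.22. In both of these genes pair 3 had the smallest difference, unlike most of the 211. Each of the calls of the 12 named genes between the constructs was lost without pair 2 and without the block. Both of these fits called 0 genes in all, so the loss was not particular to the named genes. Without pair 2 their log2 differences kept their direction. The difference was then −4.47 for KH.C8.898 and 0.68 for KH.C14.516, against −4.48 and 0.66 with all pairs. For KH.C5.653 it was 0.68, against 1.09 with all pairs. Without pair 1 the calls of KH.C14.516, KH.C12.611, KH.C5.653, KH.C3.406 and KH.C9.785 were lost too, and without pair 3 those of KH.L57.28 (log2 difference 0.61), KH.C14.516, KH.C12.611, KH.C5.502, KH.C3.406 and KH.C9.785.

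**Figure D5:**
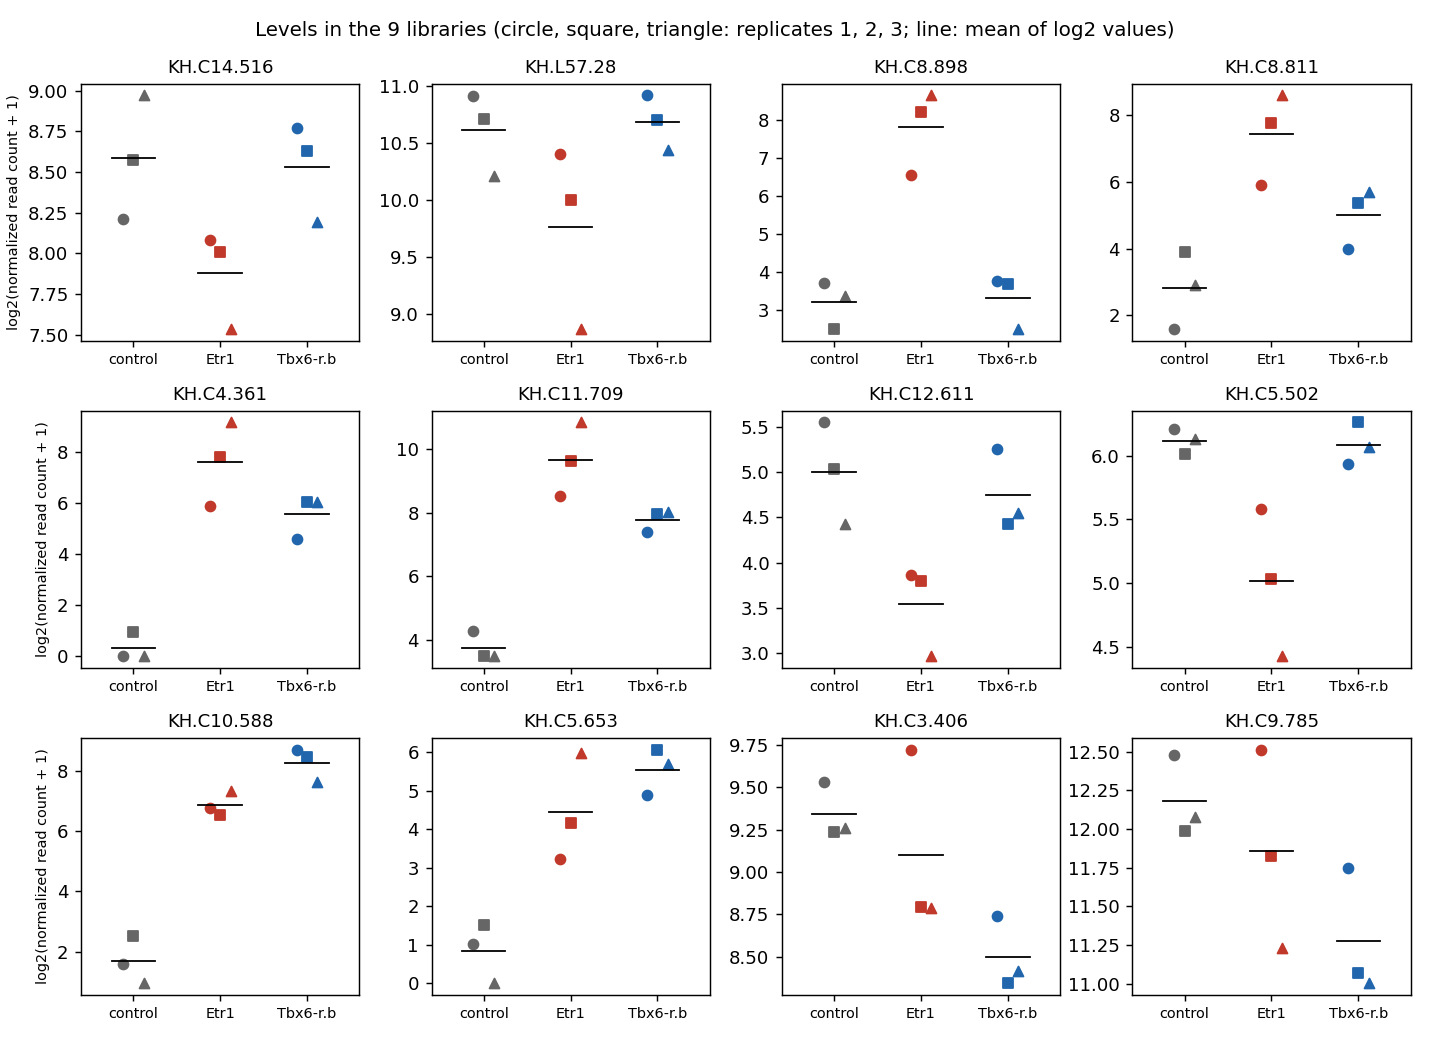
Levels of the 12 named genes as log2(normalized read count + 1) in each of the 9 libraries, by group on the horizontal axis (control, Etr1>Bra, Tbx6-r.b>Bra). Symbols mark replicate numbers and lines the mean of the log2 values. KH.C8.898 is high only in the Etr1>Bra libraries of these 9, KH.C4.361, KH.C11.709 and KH.C10.588 are above control with both constructs, and KH.L57.28, KH.C14.516, KH.C12.611 and KH.C5.502 are lowest with Etr1>Bra.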

How the data were processed

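The authors deposited 2 tables of the same 15284 gene models, each with the 3 control libraries and the 3 libraries of 1 Bra plasmid. The columns used hold a library-size normalized signal, per the file headers. The submitters' processing notes name TopHat2 (2.9.8b) and DESeq (1.8.1). The counter, its strand setting and the build were not given in the sources used here. Overlapping, antisense and near-identical genes may therefore share reads. The deposited regularized log values were not used, because each table was transformed separately.

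Division of each library by its smallest positive value gave whole reads for 100% of values (tolerance 0.01), and the control columns of both files differed in 0 of these. Reads were rescaled by median of ratios, over 6 libraries for the direct comparison and over 9 for control. limma 3.58.1 (R 4.3.3) was fitted with an intensity trend on log2(value + 1), with the replicate number as a block. The replicate number was made the block because the comparison was set up in pairs of the same number. Deviations from the group means correlated at 0.72, 0.47 and 0.53 between libraries of the same number and at −0.10 or less between different numbers. Negative values follow in part because deviations within a group sum to 0. The alternatives used edgeR 4.0.16 and DESeq2 1.42.0 on recovered reads.

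At most 2 identifiers per direction and comparison are named: between the constructs, called genes averaging at least 100, with no overlap, whose smallest difference over the pairs was largest; against control, by the same order, called genes that also differ between the constructs and do not overlap the controls. The comparison and these rules were chosen with earlier results of these data known. The planned lists of tissue markers could not be matched to identifiers.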

Additional observations from a re-analysis of the deposited data

Results flagged for a closer look

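The constructs differed for 312 genes by the paired limma test on the 6 Bra libraries, which the controls did not enter. With all 9 libraries in the fit, 133 genes were called. Among the named genes the log2 difference, muscle-driven minus neural-driven, was −4.48 for KH.C8.898, −2.40 for KH.C8.811, −2.05 for KH.C4.361, −1.88 for KH.C11.709, −0.60 for KH.C3.406 and −0.58 for KH.C9.785. It was 1.39 for KH.C10.588, 1.20 for KH.C12.611, 1.09 for KH.C5.653, 1.08 for KH.C5.502, 0.93 for KH.L57.28 and 0.66 for KH.C14.516. Groups of 3 libraries are too small for the check of single outlying samples.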

How the results depend on the processing

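The named genes kept their direction in every alternative run. Of their calls, between the constructs and against control, 164 were kept and 43 lost over the settings that leave out no pair, and 31 were kept and 29 lost over those that leave out a pair. With no replicate block, 0 genes were called higher with muscle-driven Bra and 0 higher with neural-driven Bra. These counts were 13 and 78 with no filter on low values, 10 and 48 with no intensity trend, 7 and 45 with DESeq2, and 40 and 93 in the fit of all 9 libraries, against 101 and 211 as reported. TMM scaling, pseudocounts of 5 and 0.5, a mean of at least 50, robust empirical Bayes and edgeR left both within 1.5 times. Leaving out 1 pair gave 0 to 50 and 0 to 152, lowest without pair 2. Against control, 576 genes were called with neural-driven Bra and 237 with muscle-driven Bra. These were 88 and 26 with no replicate block, 179 and 52 with no intensity trend, and 156 for muscle-driven Bra with a mean of at least 50. Without 1 pair they ran from 21 to 748 and from 1 to 329, both lowest without pair 2. The median in pair 3 of genes ranked highest with muscle-driven Bra turned from 0.16 to −0.024 when 50 genes were taken; the cause was not tested. Other medians of the check by leaving out a pair kept their sign with 50 or 200 genes and with TMM. With 2 pairs the blocked fit leaves 1 residual degree of freedom per gene, and depth limits the genes under a mean of 10, which were not tested.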

Other observations

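The 211 genes higher with neural-driven Bra held 1.16%, 1.5% and 2.30% of all reads in neural-driven libraries 1, 2 and 3, against 0.942%, 1.06% and 0.939% with muscle-driven Bra and 0.863%, 0.853% and 0.857% in control. The 101 genes higher with muscle-driven Bra held 0.568%, 0.624% and 0.538% with muscle-driven Bra, 0.445%, 0.37% and 0.24% with neural-driven Bra and 0.57%, 0.529% and 0.506% in control. Both sets were chosen on the Bra libraries, so only the control shares are apart from that choice, and the control shares of the 101 genes lay beside those of muscle-driven Bra. The spread within groups was read in the same sets, called on these libraries by a fit that does not use each gene's own spread. It therefore describes the called genes only. The SD over the 3 libraries was larger with neural-driven than with muscle-driven Bra in 175 of the 211 genes and in 95 of the 101. Over all 11514 genes this held in 6289. The median SD was 0.78 with neural-driven Bra and 0.34 with muscle-driven Bra over the 211 genes, and 0.77 and 0.28 over the 101. All genes gave 0.25 and 0.24 on the log2 scale.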
